A study of Homo sapiens with 5 samples.

Results

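The MYC and MAX network was followed in NK92MI cells through 10 genes chosen by symbol: MYC, MAX, MXI1, MXD1, MXD3, MXD4, MNT, MLX, MLXIP and MGA. Each stood on 1 of the 57221 rows of the gene count table, and the rule itself uses symbols only. NK92MI is an established human line of natural killer (NK) lymphocytes with an introduced IL2 gene, which frees it from added interleukin 2. The 3 UNC1999 libraries came from cells given 10 µM UNC1999 for 48 h, and the 2 DMSO libraries from cells given the solvent DMSO over the same time. UNC1999 is a small molecule that blocks EZH2 and EZH1, the enzymes that place methyl groups on lysine 27 of histone H3. All groups are this 1 line, and the labels do not tell whether libraries of a group were separate cultures, so every p-value reflects only the spread among these libraries, which may be technical.

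MYC and its relatives are transcription factors of the basic helix-loop-helix leucine zipper class, and most of them bind DNA paired with MAX. MYC with MAX activates genes of growth, ribosome production and metabolism, while the MXD proteins and MNT, also paired with MAX, bring the SIN3 corepressor to the same sites and silence them. MLX is the MAX-like partner of MLXIP (also called MondoA), which responds to glucose metabolites. MGA, the largest protein of the network, sits in a polycomb complex that holds germline genes silent. In lymphocytes MYC is switched on by cytokines and antigen and drives blast growth.

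A target of MYC and of its MAX-paired repressors is the E-box CACGTG, which reads the same on both strands. RefSeq promoter windows (GRCh38.p14; 250 bases before to 50 after a gene's start) matched 9 of the 10 members, all but MYC, with 14 windows between them. The motif stood in 3 of these windows, those of MXD4, MNT and MLX, against 7.26% of all 35116 windows. The stretch around each E-box is shown because these 3 members carry in their own promoters the letters of that site. The printed stretches, which are parts of the windows, lie at chr4:2262315-2262359 (minus strand), chr17:2401221-2401280 (minus strand) and chr17:42567023-42567082 (plus strand), and capitals mark the E-box.
MXD4: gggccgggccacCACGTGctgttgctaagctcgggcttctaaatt
MNT: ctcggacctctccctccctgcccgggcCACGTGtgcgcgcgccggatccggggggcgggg
MLX: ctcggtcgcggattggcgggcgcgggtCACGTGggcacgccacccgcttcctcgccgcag
A match is a run of letters and does not show binding. Of the 3 genes, MLX alone was called in the comparison of UNC1999 with DMSO, as a lower gene, and it lost that call once GC content and length were corrected for.

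Libraries held 8644161 to 8718661 counts in UNC1999 and 8442908 to 8748106 in DMSO. A gene at 0 could still have up to 3 counts, which corresponds to 0.328 to 0.373 CPM and covers counting error only. Every CPM value (read counts relative to library size) is scaled by trimmed mean of M-values (TMM) factors, and called means an adjusted p under 0.05 in edgeR's quasi-likelihood test over 13075 genes. UNC1999 replicate 2 stood apart from the others of its group, with chi-square values per degree of freedom of 8.09 and 9.49 against replicates 1 and 3, which gave 1.87 between them. Of all tested genes 15.7% were called higher and 19.5% lower, or 2951 higher and 1738 lower without scaling factors in place of 2057 and 2546. To allow for fold changes that follow GC content or transcript length, values are also given from a second fit in which offsets take out such trends. There 14.6% of 11265 genes were called higher and 18.8% lower. The size of the trends is not given here. All 12 NK markers had counts, although TYROBP had only 1 to 7 per library. Of 6 T cell markers 3 were at 0 in all 5 libraries (CD3D, CD3G and CD4), and the list summed to 82.8 to 93.0 CPM in UNC1999 and 107.8 to 116.0 CPM in DMSO, nearly all of it TRAC. B cell markers had counts for 2 of 4 genes and summed to 17.3 to 24.5 CPM in UNC1999 and 23.8 to 25.6 CPM in DMSO, mostly PAX5. Myeloid markers had counts for 3 of 4 genes (LYZ was at 0) and summed to 5.89 to 6.94 CPM in UNC1999 and 5.21 to 5.95 CPM in DMSO, mostly CSF1R. The part of these markers in the results was not tested.

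Of the 10 members, 1 (MGA) was higher, 4 (MYC, MAX, MXD1 and MLX) were lower and 5 were not called. With offsets 1 was higher (MGA), 3 were lower (MYC, MXD1 and MLXIP) and 6 were not called. The members' median log2 fold change was -0.12, against -0.01 over all tested genes, and -0.07 with offsets. With shares of 15.7% and 19.5% over all genes, a count of 5 called members in 10 is not by itself a result about the network. The count was 3 without UNC1999 replicate 1, in a fit that called 1751 of all 12876 genes higher and 1931 lower. It was 5 without UNC1999 replicate 2, where 2862 of all 12880 genes were higher and 3030 lower. Fewer members, and fewer of all genes, were called when either DMSO library was left out. MYC and MGA were called in each of the 16 alternatives tried, in opposite directions.

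**Figure D1:**
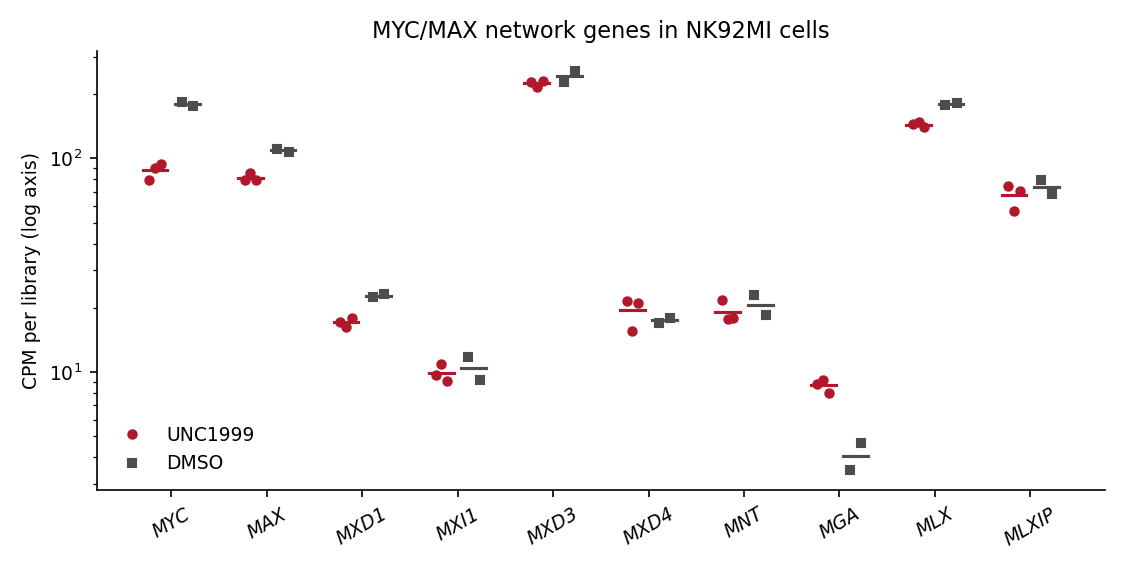
CPM (log axis) of the 10 members in each library, UNC1999 as red circles and DMSO as grey squares, with the group mean as a bar. MYC, MAX, MXD1 and MLX lie lower in all 3 UNC1999 libraries than in both DMSO libraries, MGA lies higher, and the other 5 overlap. How many of all genes separate in this way was not counted, so the separation is not by itself a result about the network.

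MYC, the activator of the network, had 79.6, 90.1 and 93.9 CPM in UNC1999 and 183.4 and 176.0 CPM in DMSO. The groups lie far apart, and the highest UNC1999 library is well under the lowest DMSO library. MYC thus fell to 0.489 times its DMSO level, a log2 fold change of -1.03 ± 0.11 (SE, 95% interval -1.25 to -0.81; edgeR adjusted p = 7.85e-09). With offsets the value was -0.75 (95% interval -0.91 to -0.60). It stayed between -1.08 and -0.96 when any 1 library was left out, and was -1.04 without UNC1999 replicate 2. In a bulk sample, fewer cells that express a gene and less RNA per cell cannot be told apart. GENCODE 29 places MYC on chromosome 8 from 127735434 to 127741434 (GRCh38, plus strand), while the authors' build was hg19. Its paralogs MYCN and MYCL had 0 counts in all 5 libraries, and MLXIPL, the paralog of MLXIP, had a count of 1 in DMSO replicate 2 and 0 elsewhere.

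The noncoding gene that starts beside MYC moved with it. CASC11, a long noncoding RNA transcribed away from MYC, has its start 1467 bases from that of MYC in GENCODE 29, and the annotated genes do not overlap. It had 27.1, 27.8 and 27.7 CPM in UNC1999 and 50.2 and 49.8 CPM in DMSO, so the groups were separate and each was tight. CASC11 fell by 0.86 on the log2 scale (SE 0.12; edgeR adjusted p = 7.57e-07), and its value with offsets was -0.76. PVT1, a long noncoding RNA gene that starts 59099 bases downstream of the MYC start, had 35.7, 34.5 and 30.3 CPM in UNC1999 and 47.4 and 43.3 CPM in DMSO. Its log2 fold change was -0.44 (edgeR adjusted p = 0.0047), but it was not called with offsets (-0.10, edgeR adjusted p = 0.476), nor without DMSO replicate 1 (0.105). Whether the 3 genes differ in how far they moved was not tested.

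**Figure D2:**
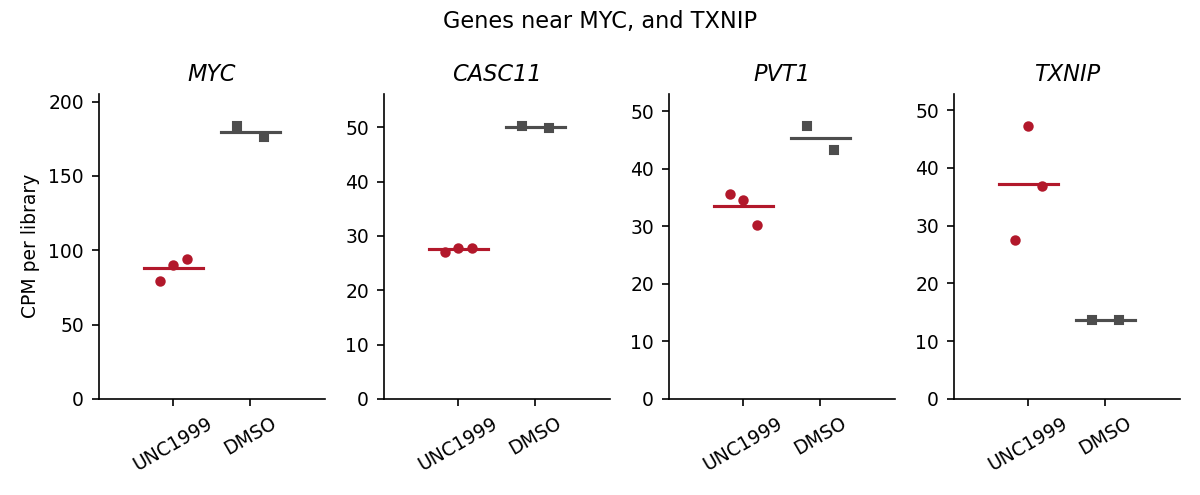
CPM per library (linear axes from 0) of MYC, its neighbours CASC11 and PVT1, and the MLXIP and MLX target TXNIP, UNC1999 as red circles on the left and DMSO as grey squares on the right, with group means as bars. The first 3 are lower in each UNC1999 library, and TXNIP runs from 27.5 to 47.2 CPM in UNC1999 against 13.6 and 13.7 CPM in DMSO.

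MAX, the shared partner (chromosome 14 from 65006174 to 65102695, minus strand, in GENCODE 29 on GRCh38), had 79.5, 85.2 and 79.6 CPM in UNC1999 and 111.0 and 107.0 CPM in DMSO. All UNC1999 libraries lie under the DMSO libraries, and MAX fell to 0.747 times its DMSO level. The log2 fold change was -0.42 ± 0.11 (SE, 95% interval -0.64 to -0.20; edgeR adjusted p = 0.00232). This call depended on the correction: with offsets MAX had -0.06 (95% interval -0.21 to 0.09, edgeR adjusted p = 0.541), and without DMSO replicate 1 the adjusted p was 0.0584. MYC counts divided by MAX counts gave 1.0, 1.06 and 1.18 in UNC1999 and 1.65 and 1.64 in DMSO, a ratio that depends on both genes' lengths and is comparable only between libraries. The ratio was lower in every UNC1999 library than in both DMSO libraries, and it was not tested.

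Among the repressors, MXD1, a factor known from cells that leave the cycle and differentiate (chromosome 2 from 69897688 to 69942945, plus strand), had 17.1, 16.3 and 17.9 CPM in UNC1999 and 22.4 and 23.1 CPM in DMSO. The groups do not overlap and MXD1 fell in the same direction as MYC. Its log2 fold change was -0.41 ± 0.14 (SE, 95% interval -0.69 to -0.14; edgeR adjusted p = 0.0158) and -0.59 with offsets (edgeR adjusted p = 0.000183). Leaving out DMSO replicate 1 (edgeR adjusted p = 0.0757), DMSO replicate 2 (0.111) or UNC1999 replicate 1 (0.0518) ended the call, as did dropping the scaling factors (0.0834) and the DESeq2 Wald test (0.0765). All 16 alternatives had it lower, between -0.65 and -0.31.

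MXD3, the MXD member known from proliferating cells, was the most abundant member per length and had 228.2, 216.3 and 229.8 CPM in UNC1999 and 227.1 and 257.5 CPM in DMSO. The groups overlap, and the log2 fold change of -0.11 had a 95% interval of -0.33 to 0.11 (edgeR adjusted p = 0.464; 0.08 with offsets). Its exons overlap those of PRELID1 on the opposite strand in GENCODE 29, and no strand setting is given in the sources used here, so reads of the 2 genes may be split or lost. PRELID1, a mitochondrial lipid transfer gene, had a log2 fold change of -0.06 and was not called. MXI1, a MYC antagonist also called MXD2, had 9.73, 10.9 and 9.12 CPM in UNC1999 and 11.8 and 9.18 CPM in DMSO, with a 95% interval of -0.43 to 0.27 on the log2 scale. MXD4, a further MXD repressor, had 191, 143 and 185 counts in UNC1999 and 137 and 151 counts in DMSO, with a log2 interval of -0.16 to 0.45. UNC1999 replicate 2 was the low library there, and without it MXD4 had 0.30 (edgeR adjusted p = 0.0636). MNT, the broadly expressed repressor of the family, had 21.8, 17.7 and 17.9 CPM in UNC1999 and 22.9 and 18.5 CPM in DMSO, with an interval of -0.40 to 0.18. For these 4 genes the libraries of both groups overlap, and the intervals do not show that their levels were equal. None of the 4 was called in any of the 16 alternatives.

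MGA (chromosome 15 from 41621224 to 41773081, plus strand) went the other way. It had 78, 84 and 70 counts in UNC1999 and 28 and 39 counts in DMSO, which is 8.83, 9.18 and 7.98 CPM against 3.48 and 4.65 CPM. Every UNC1999 library is higher than both DMSO libraries, and MGA rose 2.12-fold, with a log2 fold change of 1.09 ± 0.21 (SE, 95% interval 0.65 to 1.52; edgeR adjusted p = 0.000133). With offsets it was 0.65 (95% interval 0.23 to 1.08; edgeR adjusted p = 0.0131), below 2-fold, and with 1 library left out it ran from 0.89 (without DMSO replicate 1) to 1.31 (without DMSO replicate 2). Its transcript is the longest of the members at 14439 bases and has the lowest GC content, 42.0%. MGA also has the fewest counts of the 10 genes, and an exon overlaps the noncoding gene AC073657.1 on the opposite strand in GENCODE 29.

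In the MLX arm, MLX (chromosome 17 from 42567068 to 42573239, plus strand) had 145.1, 147.6 and 139.7 CPM in UNC1999 and 177.3 and 182.8 CPM in DMSO. The groups are separate, and the log2 fold change was -0.32 ± 0.11 (SE, 95% interval -0.54 to -0.11; edgeR adjusted p = 0.0166). The call was lost in 9 of 16 alternatives. With offsets the value turned to 0.03 (95% interval -0.10 to 0.17), and of the 5 fits with 1 library left out only that without UNC1999 replicate 2 kept it (edgeR adjusted p up to 0.151 in the others). MLX shares exon sequence with PSMC3IP, a meiotic recombination gene on the opposite strand. PSMC3IP fell by 0.50 on the log2 scale (edgeR adjusted p = 0.000848) and had -0.12 with offsets (not called). Reads from the stretch that the 2 genes share cannot be told apart without a strand setting. MLXIP had 74.5, 56.6 and 70.6 CPM in UNC1999 and 79.1 and 68.3 CPM in DMSO. Its groups overlap and it was not called (-0.13, edgeR adjusted p = 0.418), while with offsets it was lower by a small margin (-0.26, edgeR adjusted p = 0.0114).

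**Figure D3:**
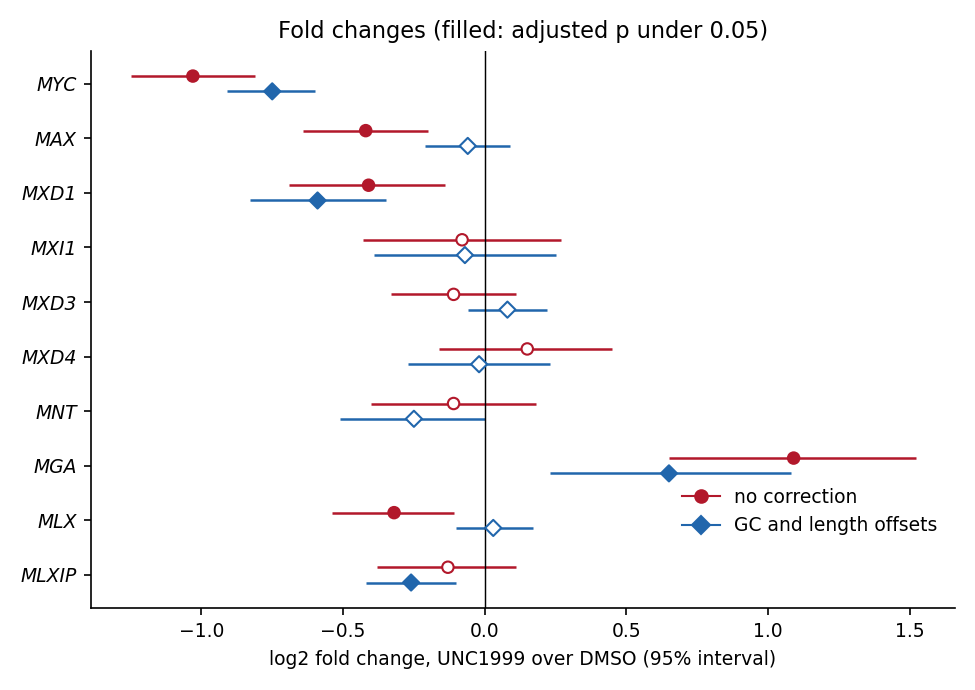
Log2 fold changes of UNC1999 over DMSO with 95% intervals for the 10 members, without correction (red circles) and with GC and length offsets (blue diamonds), where filled symbols have an adjusted p under 0.05. MYC, MXD1 and MGA are filled in both fits, while MAX and MLX move to about 0 with offsets.

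Per kilobase of the longest annotated transcript, the order of levels in UNC1999 was MXD3 (99.1 CPM per kilobase), MLX (55.7), MYC (37.1), MAX (25.8), MLXIP (7.98), MXD4 (4.79), MNT (3.83), MXD1 (3.06), MXI1 (2.86) and MGA (0.600). In DMSO, in that same gene order, the levels were 106.8, 69.6, 76.0, 34.6, 8.75, 4.32, 4.14, 4.07, 3.03 and 0.282 CPM per kilobase, so that MYC stood above MLX there and below it in UNC1999. The libraries of MXD4 and MNT, and of MXD1 and MXI1, overlap in UNC1999. In DMSO those of MNT overlap with those of MXD4 and with those of MXD1. The other neighbours in the order do not overlap. Order depends on the length used: with the median transcript length MAX takes the second place, and MYC stands at 4 in UNC1999 and 3 in DMSO in place of 3 and 2. The 6 repressor genes summed to 116.7, 109.4 and 116.5 CPM per kilobase in UNC1999 and 116.5 and 128.7 in DMSO, of which MXD3 made up 86.1 to 87.1% in UNC1999 and 85.9 to 88.2% in DMSO. MYC divided by that sum was 0.288, 0.348 and 0.341 in UNC1999 and 0.665 and 0.578 in DMSO. The libraries are apart in this ratio, while those of the repressor sum overlap.

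Known MYC target genes were called in both directions. The list held 58 genes of ribosome production, nucleotide and polyamine synthesis and related growth functions, of which 56 were tested. In UNC1999, 7 (12.5%) were higher and 13 (23.2%) lower than in DMSO, near the shares of 15.7% and 19.5% over all genes, and 36 were not called. Their median log2 fold change was -0.03, against -0.01 over all genes. With offsets there were 10 higher and 8 lower genes (median 0.02), and without scaling factors 14 were higher and 8 lower. Leaving out UNC1999 replicate 2 gave 18 higher and 16 lower. Calls over all genes moved too, to 2951 higher and 1738 lower of 13075 without scaling factors. Without UNC1999 replicate 2 they were 2862 higher and 3030 lower of 12880. Fewer targets, and fewer of all genes, were called when either DMSO library was left out.

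MCM4, a subunit of the replicative helicase, had the smallest p among the lower targets, with 487.7 ± 56.9 CPM in UNC1999 and 878.5 ± 67.0 CPM in DMSO (SD over 3 and 2 libraries), and its log2 fold change was -0.85 (-0.54 with offsets). RCL1, of ribosomal RNA processing, fell by 0.76, and ODC1, the first enzyme of polyamine synthesis, fell by 0.56 in log2 units (-0.39 and -0.20 after correction with offsets). UTP20, of the small-subunit processome, rose to 41.2 ± 2.53 CPM in UNC1999, against 16.8 ± 1.29 CPM in DMSO (SD over 3 and 2 libraries), and its log2 fold change was 1.30 (0.99 with offsets). The transferrin receptor gene TFRC (0.46, with offsets 0.20) and the nucleolar GTPase gene GNL3 (0.45, with offsets 0.46) also rose, and GNL3 was not called without DMSO replicate 1 (edgeR adjusted p = 0.128). All 6 were called with edgeR in both fits.

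**Figure D4:**
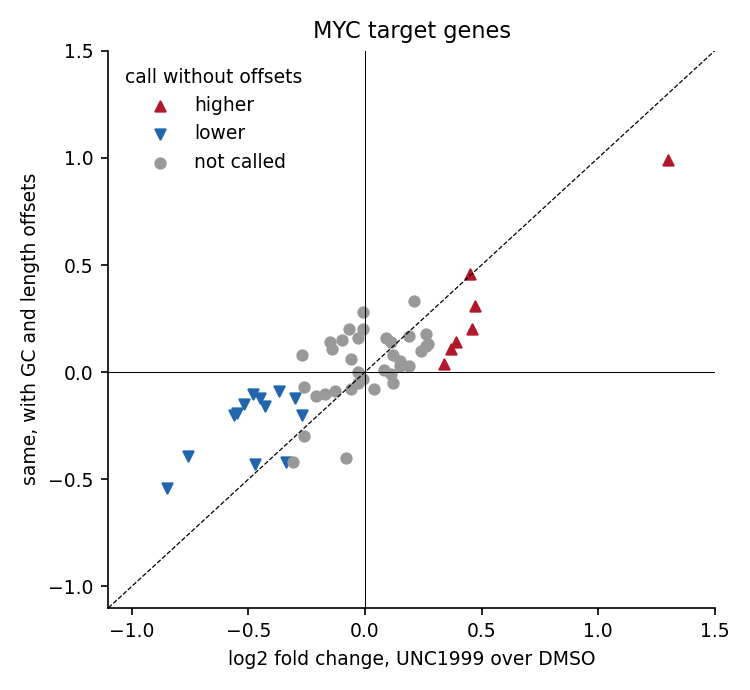
Log2 fold changes of UNC1999 over DMSO for the 56 tested MYC target genes, without correction (x axis) and with GC and length offsets (y axis), by their call without offsets, with equal values on the dashed line. The 7 higher and 13 lower genes lie on both sides of 0, and most of them lie closer to 0 on the y axis.

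Genes with an E-box in a promoter window were called in shares near those of genes without one, and the difference was not tested. Of 1152 such tested genes 18.1% were higher and 22.9% lower, against 17.8% and 20.7% of the 7790 tested genes whose windows lack the motif. The medians were -0.03 with the motif and 0.0012 without it.

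TXNIP, the best known target of MLXIP with MLX and an inhibitor of glucose uptake, rose in UNC1999. It had 27.5, 47.2 and 36.8 CPM in UNC1999 and 13.6 and 13.7 CPM in DMSO, with UNC1999 replicate 2 the highest library. The log2 fold change was 1.45 ± 0.17 (SE; edgeR adjusted p = 4.64e-08), 1.48 with offsets and 1.25 without UNC1999 replicate 2. The other listed target, ARRDC4, had 0 counts in all 5 libraries.

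Cofactors of the network were called in both directions, as were genes at large. Of 60 tested genes in 4 lists, 13 were higher and 11 lower (median 0.06), and with offsets 9 were higher and 14 lower (median -0.03). The shares for each list are to be read against 15.7% higher and 19.5% lower over all tested genes, or 14.6% and 18.8% with offsets. Leaving out UNC1999 replicate 2 gave 37 called cofactors, in a fit that called 2862 of all 12880 genes higher and 3030 lower. Fewer cofactors, and fewer of all genes, were called when either DMSO library was left out. Of the 16 SIN3, HDAC and NCOR corepressor genes, through which MXD proteins and MNT silence targets, 3 were higher and 3 lower (18.8% each, near the shares over all genes). With offsets 1 was higher (6.25%) and 5 were lower (31.2%), the lower share being above the 18.8% of all genes. RBBP4 (-0.25, with offsets -0.58) and HDAC2 (0.07, with offsets -0.48) were called lower with offsets only. The corepressor gene NCOR1 rose (0.51, with offsets 0.40; adjusted p = 0.146 in edgeR without DMSO replicate 1). The SIN3 subunit gene SUDS3 fell by 0.68 in log2 units (-0.67 with offsets). The deacetylase gene HDAC1 (-0.49) and the SIN3 subunit genes SAP30 (-0.56), ARID4B (0.70) and ARID4A (0.66) had calls that were lost with offsets.

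Of 16 tested genes for MYC coactivators and chromatin partners, 2 were higher (12.5%) and 4 lower (25.0%), against 15.7% and 19.5% of all genes. With offsets 4 were higher (25.0%) and 5 lower (31.2%), against 14.6% and 18.8% of all genes. The chromatin remodeller gene BPTF rose, with 72.7 ± 7.13 CPM in UNC1999 and 35.9 ± 4.32 CPM in DMSO (SD over 3 and 2 libraries), a log2 difference of 1.02 (0.79 with offsets). CCNT1, the cyclin of the elongation factor P-TEFb, rose by 0.79 (0.42 with offsets). TRRAP, the scaffold of MYC-bound acetyltransferases, fell by 0.42, WDR5, which helps MYC onto chromatin, by 0.39 and the acetyltransferase gene CREBBP by 0.39 in log2 units (-0.38, -0.20 and -0.46 after correction with offsets). None of these 3 genes was called when DMSO replicate 1 was left out (edgeR adjusted p = 0.300, 0.0837 and 0.172).

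Of 19 tested regulators of MYC protein stability, 7 were higher (36.8%) and 2 lower (10.5%), against 15.7% and 19.5% of all genes. With offsets 3 were higher and 3 lower (15.8% each), near the 14.6% and 18.8% of all genes in that fit. USP28, a deubiquitinase that protects MYC, rose by 0.74 (0.68 with offsets), KIAA1524, the gene of the MYC-stabilising protein CIP2A, by 0.56 (0.20 with offsets, not called) and TRIM33 by 0.52 (0.02 with offsets, not called). FBXW7, a ubiquitin ligase gene of the list, rose by 0.58 (0.67 with offsets) and was called in both fits. The kinase gene AURKA fell by 0.51 and the ubiquitin ligase gene HUWE1 by 0.40 (-0.25 and -0.34 with offsets). A net effect of these genes on MYC stability was not tested. HUWE1 was not called without DMSO replicate 1 (edgeR adjusted p = 0.165). Protein levels were not analysed here.

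Of 9 tested partners of MGA in its polycomb complex, 1 was higher (11.1%) and 2 lower (22.2%), near the 15.7% and 19.5% of all genes, and with offsets 1 was higher and 1 lower. RYBP had 0.49 and CBX1 -0.38, both not called with offsets or without DMSO replicate 2, while TFDP1, the partner of E2F6, fell by 0.65 (-0.38 with offsets). Of 11 germline genes that this complex silences in mouse cells, 3 had enough counts for the test. DDX4, a germ cell RNA helicase gene, had 13, 16 and 15 counts in UNC1999 and 4 and 5 counts in DMSO. Its DMSO counts were too low for the filter, so it was tested only through the UNC1999 libraries, where it is high. The call (log2 fold change 1.56 ± 0.49 SE, edgeR adjusted p = 0.0122) is therefore no evidence about germline genes. Leaving out DMSO replicate 1 or 2 ended that call, at 0.137 and 0.0837 for edgeR's adjusted p. SYCE2, of the synaptonemal complex, had -0.44 (edgeR adjusted p = 0.0352; -0.12 with offsets). SYCE2 was called in only 3 of 16 alternatives, and of the 5 fits with 1 library left out in 1, that without UNC1999 replicate 2. The meiotic cohesin gene STAG3 was not called.

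The genes whose levels followed MYC most closely over the 5 libraries, among genes averaging log2 CPM 5 or more, were GNL3L, a nucleolar GTPase gene (Pearson r of log2 CPM = 0.9993), CERS2, a ceramide synthase gene (0.9990), the pseudogene NSUN5P1 (0.9989), RCC1, the exchange factor of the GTPase RAN (0.9989), and SORT1, a sorting receptor gene (0.9988). The correlations describe 5 libraries in 2 groups, so they mostly carry the difference between the groups. Lower values of these genes in UNC1999 follow from that choice, so their fold changes and calls only describe them. Log2 fold changes were -0.65 for GNL3L, -0.33 for CERS2, -0.25 for NSUN5P1 (not called), -0.47 for RCC1 and -0.72 for SORT1, with offsets -0.31, -0.05, -0.22, -0.10 and -0.64. GNL3L and SORT1 alone kept their calls in both fits, and reads of NSUN5P1 may be shared with its near-identical copies.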

How the data were processed

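RNA was sequenced from 3 UNC1999 and 2 DMSO libraries, which per the labels' protocols were made from Trizol-extracted total RNA with an NEBNext Ultra kit. The authors deposited raw counts per gene symbol, and columns were matched to samples by name. Per the submitters' processing notes, the tools were STAR 2.7.9, HTSeq 0.13.5, fastp and edgeR 3.34.0, with genome build hg19. The sources used here give neither annotation nor strand setting. Symbols on more than 1 row (222) were kept apart.

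Genes passing filterByExpr entered edgeR 4.0.16 (R 4.3.3; TMM, estimateDisp, glmQLFit, 2-sided quasi-likelihood F-test, Benjamini-Hochberg adjustment over 13075 genes, no covariates). Log2 CPM used a prior count of 2. For the offsets, the deviation of a library's log2 CPM from the average library was fitted with splines of GC content (6 degrees of freedom) and of the length of the longest basic GENCODE 29 transcript (4 degrees of freedom, GRCh38). Of tested genes, 86.2% had both values. They also remove any true change that follows GC content or length. In counts simulated for 13075 genes with 200 changed, 80% of 2-fold and 59% of 1.5-fold changes were called, and 4.1% of calls were unchanged genes. That simulation had no GC or length trend and far fewer changed genes than the 2057 higher and 2546 lower calls here. Its shares therefore need not hold for these data.

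The members, lists and tests were chosen with earlier results of these data known. Named from each list were the 3 called genes with the smallest p in each direction, or else the most abundant. STAG3 was named after its value was seen, to account for the tested germline genes. FBXW7, RBBP4 and HDAC2 were also named after their values were seen. Alternatives were other scaling (DESeq2 1.42.0 size factors, upper quartile, none), other filters, robust dispersion, the DESeq2 Wald test, limma-voom (limma 3.58.1), a replicate block, offsets, both together, each library left out, a threshold of 0.01 and, added after seeing the data, median transcript length.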

Additional observations from a re-analysis of the deposited data

How the results depend on the processing

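MYC stayed lower and MGA higher, both called, in all 16 alternatives, with ranges of -1.08 to -0.75 and 0.65 to 1.31. MAX was called in 13, MXD1 in 11, MLX in 7 and MLXIP in 2, and MXI1, MXD3, MXD4 and MNT in 0. Signs turned with offsets for MXD3 (0.08), MXD4 (-0.02), MLX (0.03) and PRELID1 (0.03). With the replicate block and offsets together they turned for MXD3 (0.08), MXD4 (-0.03), MLX (0.04) and TRIM33 (-0.03). Without scaling factors they turned for MXI1 (0.03) and PRELID1 (0.04), with upper-quartile factors for PRELID1 (0.01), without DMSO replicate 1 for MXI1 (0.11) and MNT (0.05), and without UNC1999 replicate 2 for PRELID1 (0.04). No reversed value was called, and the cause was not tested. Dropping the scaling factors shifted the median over all genes by 0.104 on the log2 scale. The count of called members was 3 without scaling factors and 3 at a threshold of 0.01, and ran from 2 to 5 with 1 library left out. With 1 library left out, calls over all genes ran from 1159 to 2862 higher and 1368 to 3030 lower, called MYC targets from 11 to 34 and called cofactors from 14 to 37, while values of MXI1 ran from -0.25 to 0.11, of MNT from -0.26 to 0.05 and of PRELID1 from -0.12 to 0.04. By median transcript length, MYC ranked 4 in UNC1999 and 3 in DMSO. Fits without a DMSO library rest on 1 DMSO library, assumed to vary like the others. Samples sharing a replicate number correlated at 0.07 and 0.04 in their deviations from group means. With 2 DMSO libraries these deviations mirror each other, so the values cannot decide whether the numbers pair samples. The replicate block gave 1886 higher and 2136 lower genes and cost MLX its call (edgeR adjusted p = 0.0659). With offsets as well, the replicate block gave 1277 higher genes and 10 called MYC targets. With 2 DMSO libraries and 28 to 84 counts, MGA is the member with the least depth behind its value.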
